A study of Mus musculus and Bos taurus with 2 samples.

Results

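The genes described here encode the proteasome. They were taken by name: every gene whose symbol begins with PSM, one of the letters A to G and a number, and that had at least 1 transcript model on its own strand (a sense model). In the mouse library 49 of 14090 named genes met the rule, with 93 of the 31354 sense models of named genes. In the bovine library 46 of 13375 named genes met it, with 87 of 33163 models. Of 48 symbols listed for proteasome subunits, assembly chaperones, activators and the inhibitor, 47 were present in mouse and 45 in cattle. RefSeq lists 51 protein-coding mouse symbols that fit the rule, of which 49 had a sense model, against 53.5% of all 21900 protein-coding genes; Psmb11 and Psme2b had none, nor had any of 6 pseudogenes. The rule also took Psmc3ip in both libraries and Psme3ip1 in mouse, which are not subunits: the former encodes a meiotic recombination factor and the latter a protein that binds the activator Psme3.

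The proteasome is the protease that degrades most ubiquitin-tagged proteins of the cytoplasm and nucleus. Its core particle is a barrel of stacked rings, the outer ones built from alpha subunits (PSMA genes) and the inner ones from beta subunits (PSMB genes), some of which carry the proteolytic sites. The regulatory particle caps the barrel: its base holds a ring of ATPases (PSMC genes) that unfold substrates, and its lid (PSMD genes) holds the enzyme that removes ubiquitin. Other caps (PSME genes) open the core without ATP. In early embryos the ubiquitin-proteasome system removes maternal proteins while transcription from the embryonic genome begins.

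The study sequenced polyadenylated RNA as long nanopore cDNA reads from 1 pooled library per species. The mouse library was made from about 200 late 2-cell embryos, produced by in vitro fertilization of oocytes of superovulated Slc:ICR females, cultured in KSOM and collected 36 h after insemination. The bovine library was made from about 200 embryos of 8 to 16 cells, taken 72 h after insemination; their oocytes came from Japanese Black or Japanese Black × Holstein F1 cattle, were matured in vitro and were fertilized with the sperm of a Japanese Black bull. Both groups were produced in vitro, received no other treatment, were amplified over 14 PCR cycles and carry the batch label 1. With 1 library per species there is no replicate error and no test between species, and species, stage and library cannot be told apart. The files hold the exons of assembled models without read counts, so depth is unknown, levels are not given, and the lack of a model for a gene does not show that it was silent. Fewer cells and less RNA per cell cannot be told apart in pooled embryos.

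Models of genes listed for the stages on the labels were present in both libraries. All 8 listed genes of the mouse late 2-cell stage had models (15 in all), as did all 6 listed for the bovine 8- to 16-cell stage (28). The lists were chosen with earlier results of these data known, so these counts are no independent check of the stage. All 6 oocyte markers had models in each library, 14 in mouse and 18 in cattle. Of 8 markers of cumulus and granulosa cells, which surround the oocyte, 5 had models in mouse (12) and 6 in cattle (14). Of 7 sperm markers, 4 had models in mouse and 5 in cattle. Over all protein-coding mouse genes 53.5% had a sense model, so the mouse counts do not show the presence of such cells. No such share was available for cattle.

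Every one of the proteasome genes found had a model with the same intron chain as a reference transcript, an exact match. The share was 49 of 49 in mouse (100%, exact 95% interval 92.7 to 100) against 72.5% of all named genes, and 46 of 46 in cattle (100%, 92.3 to 100) against 65.5%. Intervals here and below are Clopper-Pearson intervals over genes or models of 1 library and cover counting error only. Other sense models were incomplete copies of a reference chain, kept an intron, or joined exons in a new way. Such a model was present for 17 mouse proteasome genes (34.7%, 21.7 to 49.6) against 56.8% of all named genes. In cattle it was present for 20 members (43.5%, 28.9 to 58.9) against 68.5%. A gene without an exact match has such a model by definition, which raises the share over all named genes. The mean number of models per gene was 1.90 in mouse (all named genes 2.23) and 1.89 in cattle (2.48), with a median of 2 throughout. More than 1 model was assembled for 26 mouse members (53.1%; 51.2% of all named genes) and for 28 bovine members (60.9%; 57.9%). Among genes with an exact match of 6 to 12 exons the members had fewer models, with a mean of 1.79 against 2.69 in mouse and 1.74 against 2.98 in cattle. There more than 1 model was assembled for 48.7% (32.4 to 65.2) against 67.0% in mouse. In cattle the shares were 54.3% (36.6 to 71.2) against 72.5%. A model that was not exact was present there for 35.9% (21.2 to 52.8) against 45.7% in mouse, an interval that includes the background. For cattle the shares were 37.1% (21.5 to 55.1) against 56.6%.

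**Figure D1:**
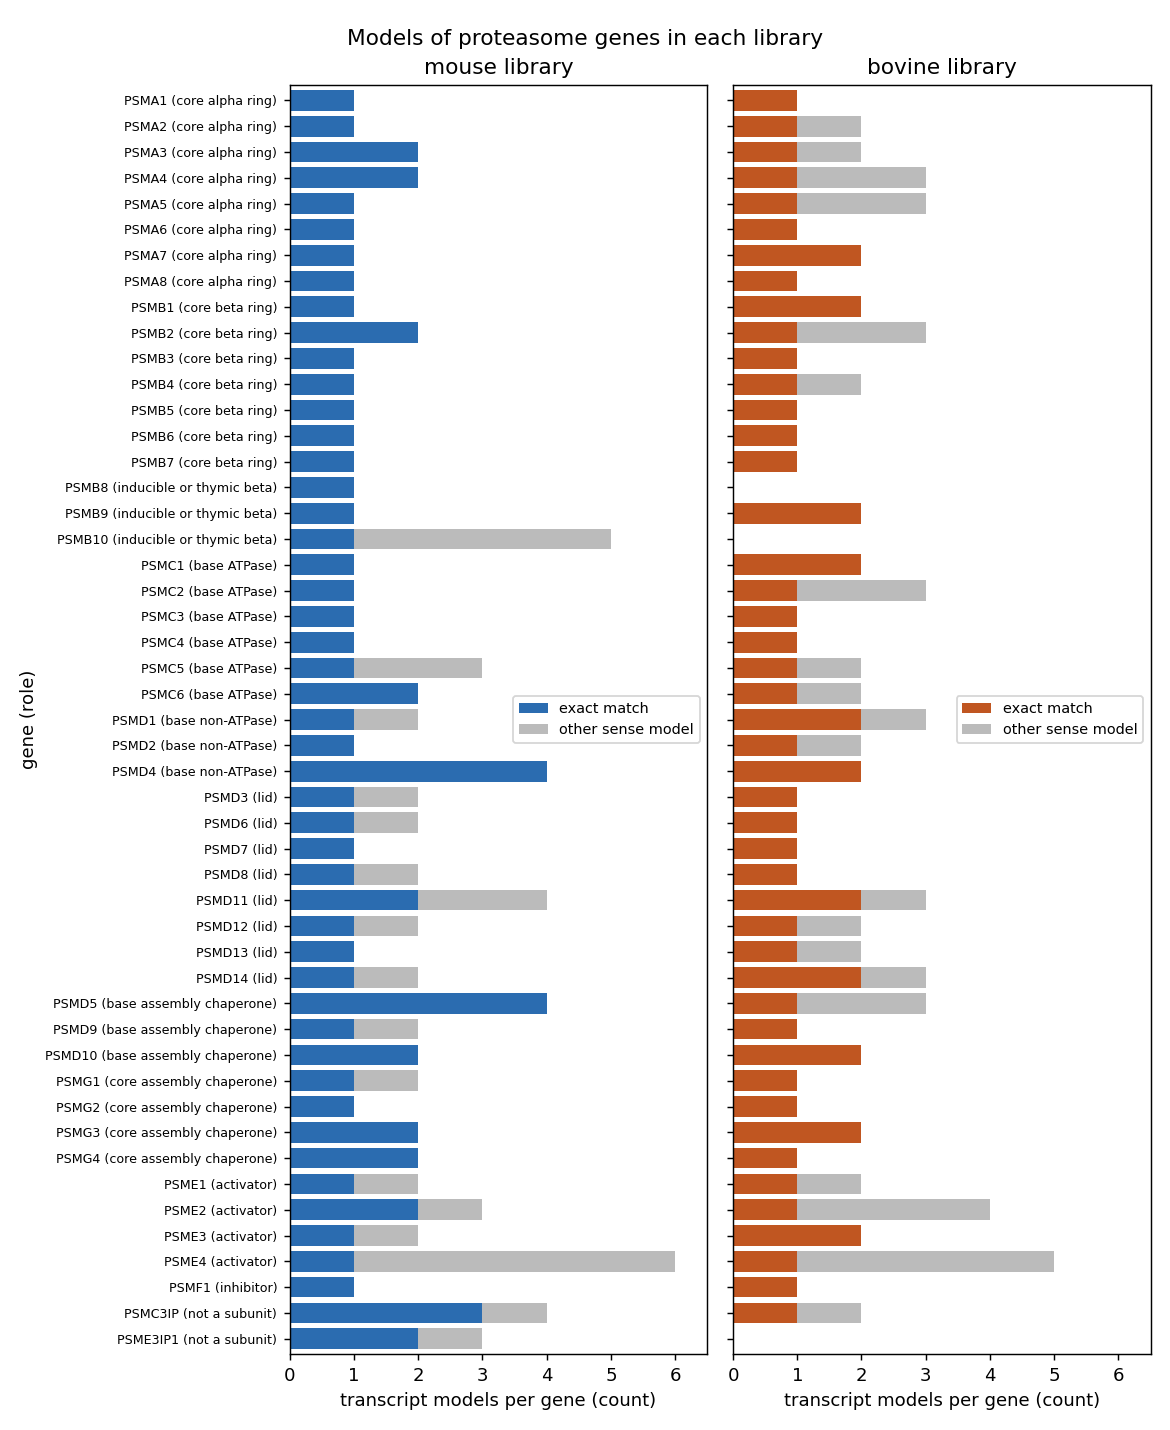
Transcript models per proteasome gene (x axis, count) for each gene and its role (y axis), in the mouse library on the left and the bovine library on the right. Coloured bars are exact matches to a reference transcript and grey bars other sense models; every gene found has a coloured bar, and Psme4, with 6 models in mouse and 5 in cattle, has the longest bar in both.

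Genes of every constitutive ring subunit of the core particle had models in both libraries. All 8 alpha subunit genes, Psma1 to Psma8, had models in each library, including Psma8, the subunit known from testis, with 1 exact match of 7 exons in each species. In mouse the 8 genes gave 10 models, all exact. Psma3 had 2 exact isoforms that differ by 5 bp at an acceptor site, and Psma4 had 2 that differ by an internal exon of 85 bp; the other 6 alpha genes had 1 model. In cattle the 8 genes gave 15 models, of which 6 were not exact. PSMA4 had models that skip its exon 2, of 27 bp, PSMA2 a model that skips exon 5, of 82 bp, and PSMA3 a model with an added exon of 109 bp. PSMA5 had a model with a donor site moved by 106 bp and another that begins 10850 bp inside the gene with a 349-bp first exon. The mouse alpha genes thus had no model outside the reference chains, and in cattle 4 of the 8 genes had such models. Over all named genes the shares with such a model were 56.8% and 68.5%, mouse first. With 1 library each and 2 references, this is a description.

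The 7 constitutive beta subunit genes were also present in both. They include Psmb5, Psmb6 and Psmb7, which carry the proteolytic sites, each with 1 exact model in each species. All 8 mouse models were exact, with 2 for Psmb2, which differ by a 123-bp exon. The 11 bovine models included 3 that were not exact, 2 for PSMB2 and 1 for PSMB4. Both PSMB2 models begin 33906 bp downstream of the exact start, and the PSMB4 model leaves out exon 2, of 207 bp. PSMB1 had 2 exact bovine isoforms that differ by a 108-bp exon.

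The inducible beta subunits, which replace the constitutive catalytic subunits in immune cells and after interferon, differed in presence between the libraries. Psmb8, Psmb9 and Psmb10 each had an exact match in mouse. In cattle PSMB9 had 2 exact models that differ in their first exon, and PSMB8 and PSMB10 had none. Psmb11, the thymic beta subunit, had no model in either library. Of 9 markers of blood and immune cells, 6 had models in mouse (9 models in all; Cd74, Cd79a and Coro1a had 2 each, while Ptprc, Cd3e and Tyrobp had 0) and 3 in cattle (PTPRC, CD3E and LAPTM5, 1 each). The share with a sense model was 53.5% over all protein-coding mouse genes. Whether blood or immune cells had a part in the presence of inducible subunits was not tested.

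Psmb10 was the mouse core gene with the most models. Its exact match (chr8:105935728-105938392, mm10, minus strand) has 8 exons and 1270 bp. The other 4 models have 3 or 4 exons and 443 to 758 bp, and all 4 begin at the same base, 105937035, which is 1357 bp downstream of the exact start. One of them opens with a 54-bp exon that overlaps an annotated GENCODE exon of the gene. Another skips exon 6, of 59 bp, and another retains an intron of 111 bp. All 4 share the last base of the exact match, so the short forms differ from it at the 5′ side and in internal splicing.

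All 6 ATPase genes of the base, Psmc1 to Psmc6, were present in both species. In mouse 4 of them had a single exact model, Psmc6 had 2 exact models, and Psmc5 had 3 models of which 2 were not exact. One Psmc5 model retains a coding intron of 78 bp, a multiple of 3, and the other extends a donor site by 489 bp. In cattle PSMC2 had 2 models that were not exact, with a donor site moved by 38 bp and with a 45-bp first exon 6507 bp inside the gene. PSMC5 had a model with an added exon of 124 bp and PSMC6 one that skips exon 5, of 68 bp. PSMC1, PSMC3 and PSMC4 had exact models only.

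The non-ATPase subunits of the base are Psmd1 and Psmd2, large scaffolds, and Psmd4, a ubiquitin receptor. Psmd4 had 4 exact models in mouse and 2 in cattle. The 4 mouse forms combine a choice of 9 bp at the donor of exon 7 with a choice of 28 bp at another donor. The 9-bp choice was assembled at exon 7 in cattle too, where it separates the 2 exact models. Psmd1 had a mouse model of 3 exons and 399 bp that opens with a 29-bp exon, 72033 bp downstream of the exact start and in no GENCODE exon of the gene. Bovine PSMD1 had 2 exact models that differ by a 170-bp exon, and a further model with a 409-bp first exon inside the gene. Psmd2 had 1 exact model in mouse, and in cattle a further model with a 61-bp first exon 82 bp upstream.

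The alternative stretch of Psmd4 is shown because the same choice of the same length was assembled in both species. The letters are mouse coding sequence in GENCODE transcript Psmd4-201, GRCm38 (mm10), chr3:95033909-95033917, minus strand, with the 9 alternative bases in capitals between flanks of 15 bases.
Psmd4: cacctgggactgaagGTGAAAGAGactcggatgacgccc

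The only other splicing change of equal size in both libraries was in Psmd10, which encodes gankyrin, a chaperone that assembles the ATPase ring. Each library had 2 exact Psmd10 models of 5 exons, which differ by 79 bp at the donor of exon 4. The mouse forms are 1377 and 1456 bp long, and the bovine forms 881 and 960 bp. The stretch is coding and 79 is not a multiple of 3. It lies at chrX:140952147-140952225 (GRCm38, minus strand) in transcript Psmd10-201, and its 79 bases are in capitals.
Psmd10: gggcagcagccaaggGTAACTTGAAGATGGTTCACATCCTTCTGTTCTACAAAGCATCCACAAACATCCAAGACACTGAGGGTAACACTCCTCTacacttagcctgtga

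The lid had its 8 genes in both libraries, with 16 models in mouse and 14 in cattle. Models that were not exact numbered 7 in mouse, from 6 genes, and 4 in cattle. Psmd11, a scaffold subunit of the lid, had 4 mouse models. The 2 exact ones differ by a 110-bp exon, and the other 2 models end in a 156-bp exon (chr11:80473093-80473248, mm10) after an intron that GENCODE lists. Psmd3 had a model with a retained intron of 262 bp. Psmd6 had a model that begins 28766 bp upstream of the exact start, with a 129-bp exon (chr14:14149583-14149711) in no GENCODE exon of the gene. It passes over the exact first exon of 207 bp.

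Skipped exons of the mouse lid fell in coding sequence. Psmd12 had a model without exon 9, of 175 bp. That model holds the annotated start codon, and its reading frame meets a stop after 314 codons against 456 in transcript Psmd12-201. Psmd14 encodes the ubiquitin-removing enzyme of the lid. Its second model lacks exon 3, of 52 bp, which holds the annotated start codon. Psmd8 had a model that lacks exons 2 and 3, of 73 and 103 bp, and moves the next acceptor by 34 bp. Together these remove 210 bases, a multiple of 3, but the model also begins 176 bp downstream of the exact start and lacks the annotated start codon. The Psmd12, Psmd14 and Psmd8 junctions were in no GENCODE transcript.

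The skipped exons of Psmd12 and Psmd14 are printed because their loss alters the frame or the start codon of the model. Capitals mark the exon, small letters the 15 bases on each side in the annotated transcript, all GRCm38 and plus strand. Psmd12 exon 9 is at chr11:107494630-107494804 and Psmd14 exon 3 at chr2:61722710-61722761.
Psmd12: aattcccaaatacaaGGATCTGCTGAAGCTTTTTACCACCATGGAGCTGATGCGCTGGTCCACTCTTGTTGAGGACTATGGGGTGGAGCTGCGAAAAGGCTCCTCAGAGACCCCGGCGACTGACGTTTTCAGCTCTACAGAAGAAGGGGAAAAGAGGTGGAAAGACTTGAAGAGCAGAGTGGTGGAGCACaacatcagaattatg
Psmd14: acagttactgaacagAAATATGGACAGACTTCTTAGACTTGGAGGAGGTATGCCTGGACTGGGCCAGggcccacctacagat

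None of these lid skips was assembled in cattle, where the lid genes changed in other places. PSMD12 had a model with an added exon of 379 bp and PSMD14 one with an added exon of 94 bp. PSMD13 had a model that ends early in a 210-bp exon, and PSMD11 one that retains a 119-bp intron. PSMD3, PSMD6, PSMD7 and PSMD8 had 1 exact model each. Over all members, exon skips in models that were not exact numbered 5 in 4 mouse models of 4 genes. In cattle they numbered 14 in 10 models of 8 genes. Skips were counted per model, so the 27-bp exon of PSMA4, a multiple of 3, is counted more than once. The length was a multiple of 3 for 0 of the 5 and for 6 of the 14. Mouse Psme4 is left out of this count. The 61-bp exon that its longer models lack is in its exact match but not in Psme4-201. Bovine PSME4 stays in, with skips of 57, 56, 130 and 70 bp, all in its model of 25 exons. Skips were not counted over all named genes, so these numbers are no result about the members.

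The chaperones of the base had mostly exact models. Psmd5, which holds ATPase intermediates during assembly, had 4 exact mouse models that combine a 145-bp exon with a 31-bp acceptor choice. In cattle PSMD5 had 1 exact model, one that skips exon 4 (129 bp), and one of 4 exons that begins 16425 bp downstream. Psmd9 had 1 model in cattle and 2 in mouse, where the second extends a donor by 1591 bp. The core chaperones Psmg1 to Psmg4, which guide alpha ring assembly, had 7 models in mouse and 5 in cattle, and 1 of these 12 was not exact, a 2-exon mouse Psmg1 model of 445 bp.

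Psme1 and Psme2 form the interferon-inducible cap, Psme3 the nuclear cap and Psme4 the cap known as PA200, which acts in histone degradation. All 4 were present in both libraries, with 13 models in each, of which 8 were not exact in each. Psme4 alone gave 5 of these 8 in mouse and 4 in cattle, and the other 3 activators gave 3 and 4. Mouse Psme1 had a model with a 46-bp first exon 880 bp downstream of the exact start, outside GENCODE exons. Psme2 had 2 exact models with different first exons and 1 other that begins 1098 bp downstream. One Psme3 model continues past the exact end to an 18-bp last exon 21251 bp further on. Bovine PSME1 and PSME2 each had a model with a retained intron, of 110 and 86 bp, and PSME2 had 2 models with skipped exons. All 3 bovine PSME2 models that were not exact begin 670 bp upstream of the exact start, at 1 shared base.

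Psme4 had more models than any other member in both libraries, 6 in mouse and 5 in cattle. The annotated mouse transcript Psme4-201 has 47 exons and 6491 bp, of which 5529 are coding. None of the 6 mouse models begins at its start. Model 1 has 3 exons and 618 bp, model 2 has 9 exons and 1223 bp, model 3 has 41 exons and 4837 bp, and model 4 has 46 exons and 5992 bp. These 4 models all begin at 30791092 on chromosome 11, the exact edge of annotated exon 2, 19366 bp downstream of the annotated start. Model 4 follows the annotated chain from exon 2 to exon 47, with all 45 introns annotated, so it lacks only the first exon.

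The Psme4 model called exact against the authors' reference is a shorter form. It has 40 exons and 6110 bp and begins 38127 bp downstream of the annotated start, inside exon 9; 37 of its 39 introns are in GENCODE. Model 6, of 17 exons and 2738 bp, begins 73454 bp downstream at the edge of exon 33, and 13 of its 16 introns are annotated. In cattle the exact PSME4 model spans 47 exons and 7067 bp (chr11:36572842-36673067, bosTau9, minus strand). The other 4 are partial: 1 of 4 exons and 1228 bp begins 35 bp upstream of the exact start and ends 76158 bp short of its end, and those of 31, 25 and 11 exons begin 50598, 53693 and 76218 bp downstream. The first exon of the gene was therefore covered by 2 models in cattle and by 0 in mouse.

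**Figure D2:**
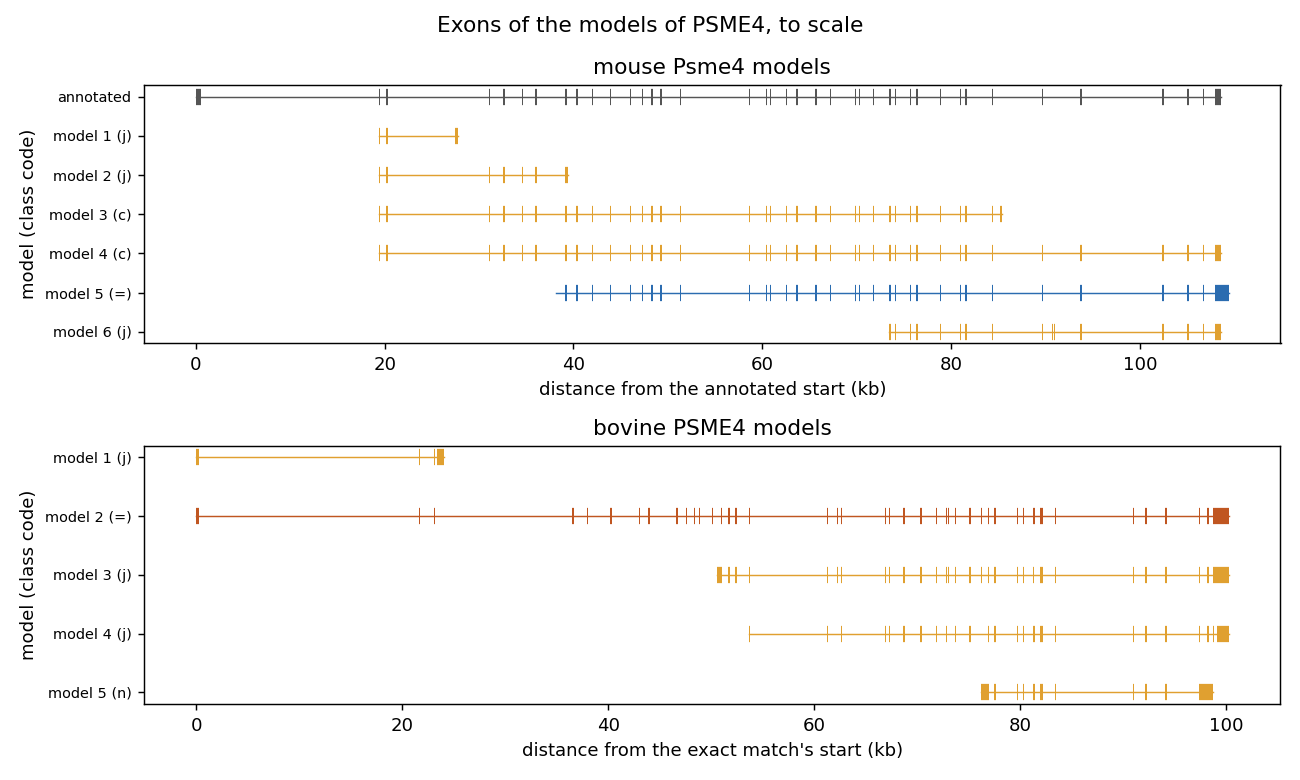
Exons of each Psme4 model drawn to scale as blocks joined by lines, with distance in kb from the annotated start (mouse, top) or from the start of the exact match (bovine, bottom) on the x axis and models on the y axis. Grey is annotated transcript Psme4-201, blue and red-brown are exact matches and yellow the other models; 4 mouse models begin together 19366 bp from the annotated start, and bovine model 2 spans the whole gene.

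The inhibitor Psmf1 had 1 exact model of 7 exons in each species. Psmc3ip had 4 mouse models, 3 of them exact and the other with a retained 84-bp intron, and 2 bovine models, 1 exact and the other without exon 4, of 112 bp. Psme3ip1 had 3 in mouse; the bovine file names the gene FAM192A, which lies outside the rule and had 4 models, all exact. Over the 46 genes found in both libraries, 12 had 1 model in each, 19 had equal numbers, 12 had more in mouse and 15 more in cattle. A model that was not exact was present in both species for 9 genes and in neither for 20. Such a model was present in mouse only for 6 and in cattle only for 11. These numbers and those of models per gene were not counted over all genes found in both libraries. They are therefore no result about the members. Among models that were not exact, no gene had an exon of an exact match skipped in both libraries, when mouse Psme4 is read against Psme4-201. Exact matches of a gene that differ by an internal exon were not counted here.

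Some end exons lay outside every exon of the gene's exact matches. Such a first exon was found for 5 mouse members (10.2%, 3.40 to 22.2) against 16% of all genes with an exact match, and for 6 bovine members (13.0%, 4.94 to 26.3) against 17.3%. With GENCODE M21 as the annotation the mouse count was 3, namely Psmd1, Psmd6 and Psme1, since those of Psmb10 and Psme4 are listed there. Such a last exon was found for 2 members in each library. The shares were 4.08% (0.498 to 14.0) against 8.08% in mouse and 4.35% (0.531 to 14.8) against 14.3% in cattle. A model whose class code (m or n) marks a retained intron was found for 3 mouse members (6.12%; 5.8% of named genes) and 4 bovine members (8.70%; 5.52%). The Psmb10 model with a retained intron carries another code, and with it the mouse count was 4. The intervals of the first-exon, last-exon and retained-intron shares include the background in both libraries, so these shares are no result about the members.

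Among models rather than genes, 67 of 93 mouse models were exact (72.0%, 61.8 to 80.9) against 55.4% of all named sense models, and 57 of 87 bovine models (65.5%, 54.6 to 75.4) against 44.0%. Proteasome genes have a median of 9 exons per model in both species, more than the 7 and 6 of all models, and spliced lengths of 1335 and 1310 bp against 1972 and 1824 bp. Among genes with 6 to 12 exons in their longest exact match, which leaves out every gene without one, the shares came closer, at 74.3% (62.4 to 84.0) against 69.5% in mouse and 67.2% (54.0 to 78.7) against 59.6% in cattle. Other large complexes had like shares of genes with an exact match: 94.1% and 95.4% for ribosomal protein names, 96.1% and 100% for nuclear respiratory chain genes and 96.4% and 90.2% for translation initiation factors, mouse first. The exact-match shares are thus not particular to the proteasome. A model that was not exact was present for 32.9% and 50.6% of ribosomal protein names and 29.4% and 38.5% of respiratory chain genes. For initiation factors these shares were 41.1% and 56.9%, again mouse first.

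**Figure D3:**
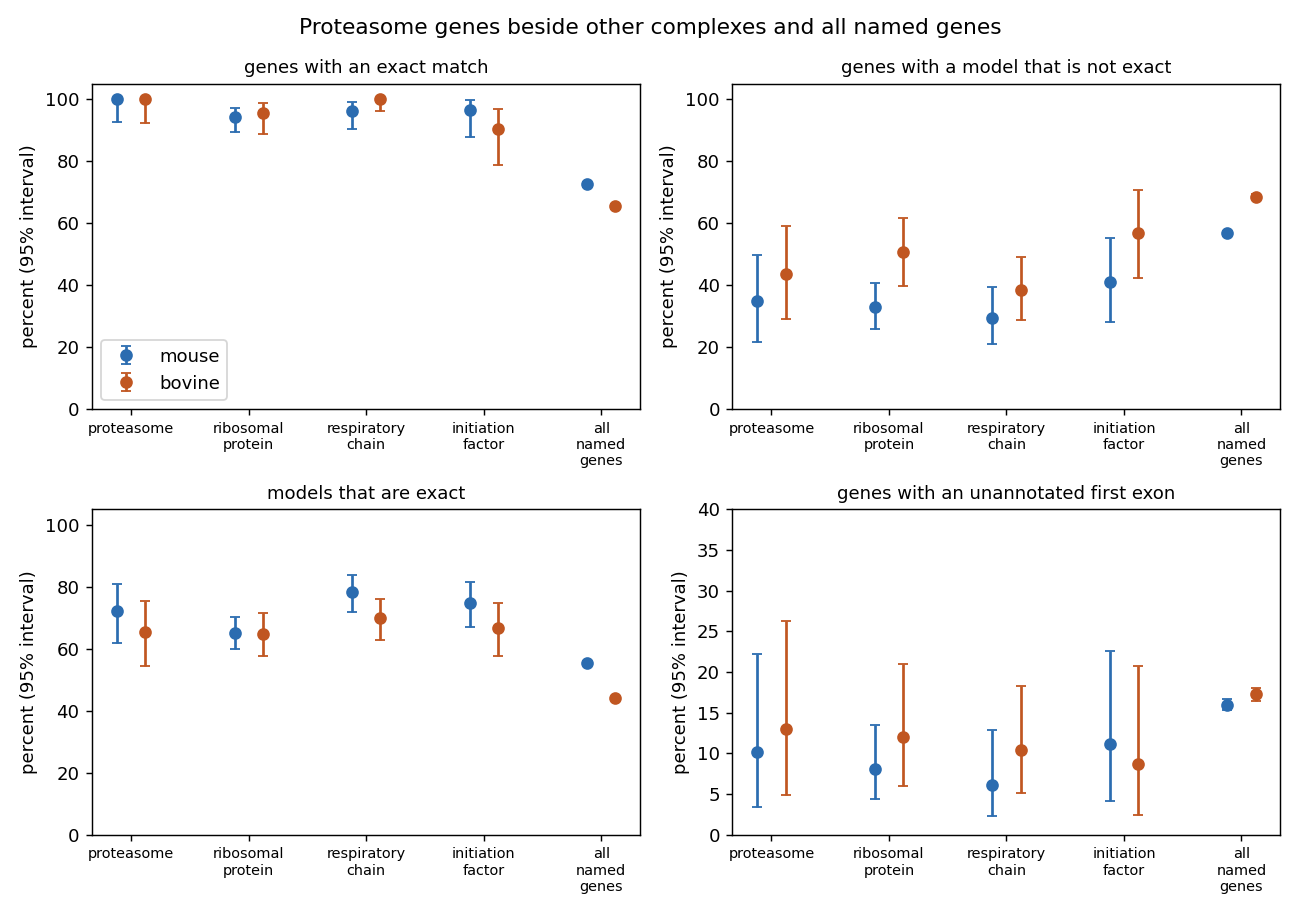
Percent of genes or models (y axis) with an exact match, with a model that is not exact, that are exact, or with an unannotated first exon (one outside the exact matches), for proteasome genes, 3 other gene sets and all named genes (x axis). Points are single libraries, mouse in blue and bovine in red-brown, and bars exact 95% binomial intervals; the proteasome points sit at 100% in the first panel, above the other sets in mouse, and their intervals overlap those of the other complexes in every panel.

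The exon structure of these genes was nearly the same in the 2 species. Comparing the exact matches of each gene, all internal exons had equal lengths in 38 of 46 proteasome genes (82.6%, 68.6 to 92.2). Over genes of all kinds this held for 2791 of 5414 (51.6%, 50.2 to 52.9). Where a gene had several exact matches, the pair with the most internal exons of equal length in order was taken. This choice favours equal lengths, and the same rule served every set. The share was 78.5% for ribosomal protein names, 70.8% for respiratory chain genes and 60.5% for initiation factors, and the proteasome interval includes the first 2 of these. Counted by exon, 356 of 364 mouse internal exons had the same length in order (97.8%; 89.5% over all genes). In the pairs taken, Psmd11, with 12 internal exons from 36 to 195 bp, and Psmd5, with 8 from 110 to 192 bp, matched exon for exon. These lengths come from the genome annotation that the exact matches follow as much as from the libraries.

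In 6 of the 8 exceptions 1 internal exon differed, by 2 to 12 bp. Psmd1 has an exon of 154 bp in mouse and 156 bp in cattle, Psmd14 128 and 137 bp, Psmd4 65 and 68 bp, and Psmd9 209 and 206 bp. Psmf1 has 186 and 183 bp and Psmg3 237 and 249 bp. The other exceptions were Psmc5 and Psme4. In Psmc5 a 288-bp mouse exon stands against 2 bovine exons of 57 and 231 bp, which add up to it. In Psme4 the mouse exact match holds 38 internal exons and the bovine one 45, of which 37 were equal. That mouse match is the short form that begins inside annotated exon 9, so its exon number reflects the model that was compared. Mouse model 4, which follows the annotated chain from exon 2 to exon 47, was not compared here. The lengths differ by a multiple of 3 in Psmd14, Psmd4, Psmd9, Psmf1 and Psmg3.

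**Figure D4:**
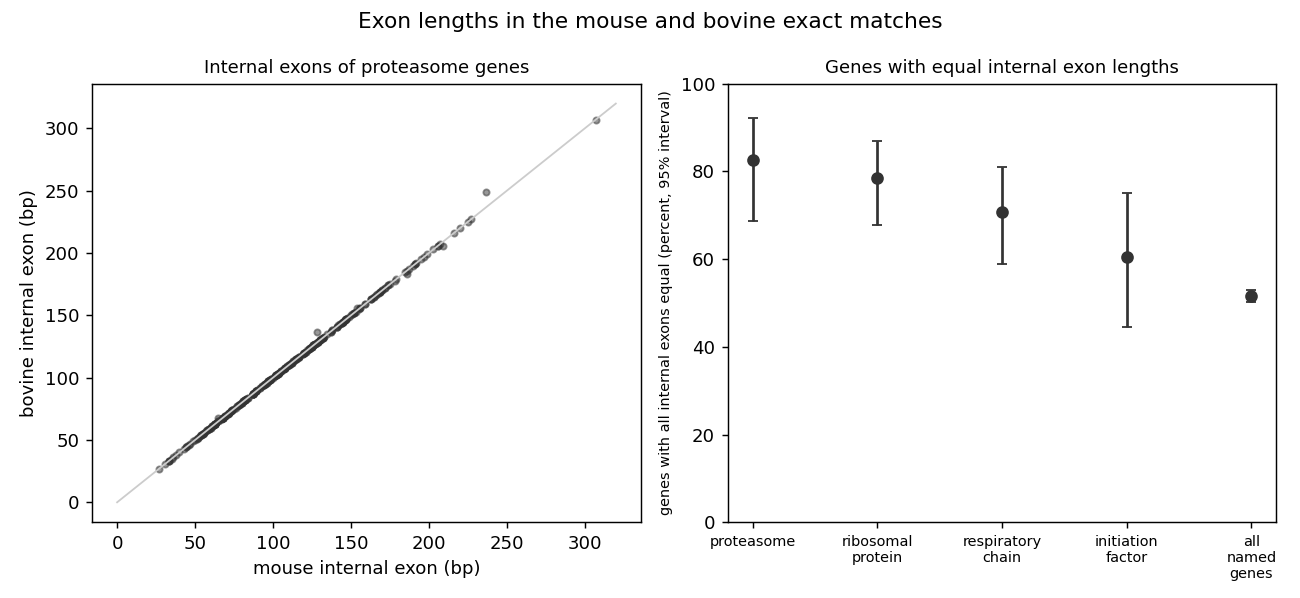
Left, length in bp of each internal exon of a proteasome gene in the mouse (x axis) and bovine (y axis) exact match, for 317 exon pairs of 44 genes with equal exon numbers; the line marks equal lengths, on which 311 pairs lie. Right, percent of genes in each set with all internal exons equal (y axis) and exact 95% interval. Proteasome genes are at 82.6% and all named genes at 51.6%. Each gene is shown by its pair of exact matches with the most equal internal exons.

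Mouse starts could be set against RefSeq, whose table (GRCm38.p6) gives a window from 250 bases before to 50 after the start for 41 members. Of 58 exact-match starts, 53 lay in the window (91.4%, 81.0 to 97.1), against 87.3% of 13784 starts over all genes. The start was at the very base RefSeq gives for 45 of the 58 (77.6%, 64.7 to 87.5; all genes 66.9%), and the median offset was 0 bp. The models do not show whether the ends of an exact match came from reads or from the reference. These offsets are therefore a description and not a measure of start sites. Starts outside the window were those of Psma5 (201 bp downstream), Psmb8 (154 bp), 2 Psmd4 models (50 bp) and Psme4. Of 25 models of 16 genes that were not exact, 8 began in the window, 3 upstream of it and 14 downstream. Over all named genes 33.2% of such models began in the window and 48.0% downstream. Of the 14 downstream starts among members 5 were of Psme4 and 4 of Psmb10, and without these genes 8 of 16 models began in the window and 5 downstream.

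Promoter windows were searched on both strands for 5 short motifs. TGACNNNGC, the core of the antioxidant response element through which NRF1 (Nfe2l1) raises proteasome genes when the protease is inhibited, was in 6 of 41 members (14.6%, 5.57 to 29.2), near the 14.8% of 7686 genes with an exact match and the 12.4% of all 32851 windows. CCGGAAGT, a site of ETS-family factors, was in 9 members (22.0%, 10.6 to 37.6) against 9.97% of genes with an exact match and 3.89% of all windows. CCAAT was in 13 (31.7%; 41.6% of genes with an exact match), GGGCGG in 24 (58.5%; 64.0%) and TATAAA in 4 (9.76%; 7.46%). CCGGAAGT can overlap TGACNNNGC by its last base, and in Psme4 the 2 matches lie apart. A match is a description of the sequence, not a site.

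The 6 windows with TGACNNNGC belong to the catalytic subunit genes Psmb5 and Psmb6, the ATPase gene Psmc6, the lid gene Psmd12, the chaperone gene Psmd9 and Psme4. Those of Psmb5, Psmb6, Psmd9 and Psme4 are printed because the match lies within 50 bases of the start: its first base is at position -47 in Psmb5, -9 in Psmb6, -31 in Psmd9 and -7 in Psme4. The Psmd9 match overlaps a GGGCGG match on the other strand. The Psme4 window also holds CCGGAAGT at -53. Mouse Psmb5, Psmb6 and Psmd9 had exact models, while no mouse Psme4 model reached this window. Capitals mark TGACNNNGC (in Psme4 on the other strand) and CCGGAAGT. The windows are Psmb5 chr14:54617946-54618245, minus strand, Psmb6 chr11:70525107-70525406, plus strand, Psmd9 chr5:123227940-123228239, plus strand, and Psme4 chr11:30771525-30771824, plus strand.
Psmb5: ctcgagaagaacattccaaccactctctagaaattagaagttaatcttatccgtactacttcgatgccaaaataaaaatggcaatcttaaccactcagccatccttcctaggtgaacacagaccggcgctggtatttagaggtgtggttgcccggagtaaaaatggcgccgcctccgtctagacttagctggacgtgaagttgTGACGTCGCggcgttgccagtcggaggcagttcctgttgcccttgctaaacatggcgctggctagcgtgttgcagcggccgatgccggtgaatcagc
Psmb6: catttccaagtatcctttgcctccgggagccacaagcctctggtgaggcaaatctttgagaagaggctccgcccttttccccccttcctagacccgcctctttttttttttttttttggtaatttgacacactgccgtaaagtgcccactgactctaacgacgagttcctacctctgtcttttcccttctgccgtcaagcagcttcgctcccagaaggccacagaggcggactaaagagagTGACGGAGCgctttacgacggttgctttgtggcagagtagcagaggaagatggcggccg
Psmd9: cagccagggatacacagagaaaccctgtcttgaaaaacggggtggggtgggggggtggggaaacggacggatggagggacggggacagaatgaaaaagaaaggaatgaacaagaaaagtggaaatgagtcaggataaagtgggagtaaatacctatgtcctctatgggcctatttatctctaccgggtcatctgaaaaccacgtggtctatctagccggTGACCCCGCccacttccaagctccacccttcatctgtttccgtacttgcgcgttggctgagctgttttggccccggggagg
Psme4: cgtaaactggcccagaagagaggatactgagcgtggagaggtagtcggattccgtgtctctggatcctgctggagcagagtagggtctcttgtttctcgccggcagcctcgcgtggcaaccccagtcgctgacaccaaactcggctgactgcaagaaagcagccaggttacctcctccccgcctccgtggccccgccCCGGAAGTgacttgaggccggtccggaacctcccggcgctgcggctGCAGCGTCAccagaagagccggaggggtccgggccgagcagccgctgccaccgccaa

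Some proteasome genes start back to back with a neighbour. An exact match on the opposite strand began within 1 kb upstream for 8 of 49 mouse members (16.3%, 7.32 to 29.7; 12.9% of genes with an exact match) and for 5 of 46 bovine members (10.9%, 3.62 to 23.6; 13.8%). The shares were near the background, and 4 pairs were found in both species. Psma2 and Mrpl32 began 205 bp apart in mouse and 210 bp in cattle. Psmc5 and Ftsj3 were 101 and 76 bp apart, Psmd13 and Sirt3 85 and 78 bp, and Psmg2 and Cep76 74 and 309 bp. Mouse Psmb9 stood 226 bp from Tap1, the peptide transporter gene that works with the immunoproteasome. Opposite-strand models also lay across Psma5 (1) and Psmd9 (2) in mouse, and 1 further model lay inside an intron of Psmd1. None of these is counted among the members' models.

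Of 46 listed genes that work with the proteasome, 42 had models in each library, where 53.5% of protein-coding mouse genes had one. An exact match was present for 37 of the 42 in mouse (72.5% of all named genes) and for 31 of the 42 in cattle (65.5%), and the median was 2 models per gene. The subunits named otherwise, Adrm1 and Sem1, had 1 model each in mouse and 2 each in cattle. Pomp, which matures the core particle, had 2 and 1, and Usp14, a deubiquitinase bound to the base, had 3 in each. Akirin2, which carries proteasomes into the nucleus, had 3 in each. Nfe2l1 had 3 in mouse and 6 in cattle. Among those with most models in mouse were the ligase scaffold Cul1 (6), the deubiquitinase Uchl5 and Zfand5 (5 each) and Cul4b (4). In cattle they belonged to ZFAND2A (8), none of them exact, and to UFD1, MAFG, CUL2 and CUL4B (7 each). Genes without a model were Paaf1, Ubqln2, Vcp and Maff in mouse and Ubqln2, Ubqln4, Ddi2 and Mafk in cattle. Vcp, the segregase that extracts ubiquitinated proteins, had 1 exact model in cattle.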

How the data were processed

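Nanopore cDNA reads of polyadenylated RNA (SQK-PCS114 kit, per the labels' protocols) had been assembled by the authors into transcript models. The deposited files give exon coordinates (a start and an end, unit other) on mm10 and bosTau9, per the submitters' processing notes, with a class code against a reference per the file headers. They hold no counts, and the sources used here do not give the assembler's settings. Sense models had class codes = c k m n j o. Each gene's models were compared exon by exon with its exact matches, on code tested on simulated models. GENCODE M21 and RefSeq windows served for mouse only; bovine annotation was not used here. Shares carry exact 95% Clopper-Pearson intervals (scipy 1.17.1, Python 3.11.15). No test between species was made, with 1 library each. Alternatives changed the codes, the annotation and the exon number. Structures are given in full for the members with most models, with end exons outside the exact matches or with retained introns, for inducible subunits, activators, the inhibitor and non-subunits; of partner genes, those with no model or the most, of which 1 is not reported here. Others named were chosen after their values were seen. The members and gene lists were chosen with earlier results of these data known.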

Additional observations from a re-analysis of the deposited data

How the results depend on the processing

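Of 54 alternative values for 24 results, 52 stayed within 1.5 times of the value given or within its interval. The other 2 moved: with GENCODE M21 as the annotation 3 mouse members had an unannotated first exon instead of 5, since GENCODE lists exons that the exact matches lack, and with exact matches only the bovine mean was 1.24 models per member gene instead of 1.89, since fewer models are counted. Some of the 52 could not have moved, since no member had a single-exon model and every member had an exact match. The total is therefore no measure of how firm the results are. The restriction to 6 to 12 exons was chosen after seeing the data. No paired analysis was possible because each species has 1 library, and for the same reason no library could be left out. Read depth is unknown, which limits any statement on absent models.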
